A study of Mus musculus with 8 samples.

Results

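The genes described here encode the subunits of the mitochondrial respiratory chain and ATP synthase that are carried in the nuclear genome. They were chosen by symbol alone, as all symbols that begin with Nduf and a letter a, b, c, s or v followed by a number, with Uqcr, with Cox and a digit from 4 to 8 followed by a, b or c, or with Atp5 and a letter. Of the 55418 gene symbols counted, 90 matched, and 8 of these that end in -ps were left out, which left 82 members. By complex these are 40 members for complex I, 8 for complex III, 17 for complex IV and 17 for complex V. Mouse E14 embryonic stem cells (ESCs, the strain given as 12910la) were sequenced as 8 RNA-seq libraries, 2 each for control cells, labelled wild type, and for cells in which Hira, Ubn1 or Ubn2 was depleted with a short hairpin RNA (shRNA). All 4 groups were grown on gelatin in serum with leukaemia inhibitory factor. For depletion, cells were transfected with a pSUPER-puro plasmid and selected with puromycin for 3 days. The paper's knockdown methods give a hairpin against luciferase as control, while its RNA-seq methods name wild-type ESCs. Whether the sequenced controls were transfected and selected is therefore not clear. If they were not, transfection and selection cannot be told apart from depletion in the comparisons with control. The depleted cells were harvested as selected populations, with no clonal line described. The labels do not say whether the 2 libraries of a group came from separate transfections, so the p-values may measure technical spread. The question put to these genes was how their transcripts differed when each member of the HIRA complex, the chaperone that places the replacement histone variant of histone H3 into chromatin, was lowered.

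The respiratory chain passes electrons from NADH through complex I, from complex I to complex III by ubiquinone, and from complex III to complex IV by cytochrome c, pumping protons that complex V uses to make ATP. A few core subunits hold the redox centres or the catalytic sites, the many supernumerary subunits assemble around them, and a small set of the core proteins is encoded by mitochondrial DNA, so that nuclear and mitochondrial transcripts have to supply one assembly. Several complex IV subunits exist as a general form and as a heart and skeletal muscle or testis form, and ESCs are known for making much of their ATP by glycolysis.

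Each targeted gene was lowest in its own depletion. Hira stood at 89.4 and 97.6 CPM (counts relative to the TMM-scaled library total) in the controls and at 10.0 and 10.4 in Hira-depleted cells, Ubn1 at 53.0 and 44.1 in the controls and at 23.8 and 23.8 in Ubn1-depleted cells, and Ubn2 at 50.1 and 51.7 in the controls and at 30.1 and 24.6 in Ubn2-depleted cells. The depth of depletion differed, with log2 fold changes against control (edgeR) of -3.215 for Hira, -1.028 for Ubn1 and -0.895 for Ubn2. Depth and the gene targeted therefore cannot be told apart wherever the depletions or their counts of members are compared. In Hira-depleted cells Ubn1 (0.475) and Ubn2 (0.256) rose, as did Hira (0.188) in Ubn2-depleted cells. Library totals ran from 19710040 to 32706053 counts, of which the members took between 1.06% and 1.23%. All 10 ESC markers had counts in every library. Their summed level was 6980 and 7236 CPM in the controls and from 5824 to 6355 CPM in the 6 depleted libraries. After Hira depletion 4 of them fell and 1 rose, after Ubn2 depletion 5 fell and 1 rose, and after Ubn1 depletion 3 fell and 0 rose. The shares of all genes tested that fell were 17.3%, 19.1% and 3.62%. The 7 trophoblast markers summed to 72.0 and 71.2 CPM in the controls, to 138.5 and 113 CPM in the Hira libraries, where 4 of the 5 tested rose, and to between 60.5 and 72.6 CPM in the other 4, and their part in the members' values was not tested. The 2 Ubn1 libraries differed for these genes: Ubn1 replicate 1 was below replicate 2 in 61 of the 75 members tested in all 3 comparisons with control. With 2 libraries it cannot be told which of them is the unusual one. In bulk RNA fewer cells of one kind and less RNA per cell cannot be told apart.

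The members were expressed over a wide range in the control cells. Levels between genes are compared here as CPM per kilobase of exon, over the 2 controls, for the 81 members with 1 annotated position. In complex V the catalytic beta subunit Atp5b (538 ± 23.8, SD, n = 2) and the alpha subunit Atp5a1 (458 ± 8.21) were highest. Atp5l (28.2 ± 1.63) and Atp5s (3.46 ± 0.311), whose product is a factor associated with ATP synthase rather than a structural subunit, were lowest. The length is that of all annotated exons together, 6443 bases for Atp5l against 616 for Atp5k, so the rank of Atp5l depends on it. In CPM, Atp5l (182) stood above Atp5k (42.4) in the controls. Genes that share its sequence held 30427 counts over the 8 libraries against its own 33281. In complex IV the general isoforms Cox8a (481 ± 11.9) and Cox6a1 (472 ± 4.50) were highest, and their values did not differ beyond the spread of the controls. Uqcr10 (241 ± 0.865) and Uqcr11 (137 ± 9.16) led complex III, where the core subunit Uqcrc2 (71.2 ± 4.34) was the lowest, next to Uqcrq (85.3 ± 1.17). Complex I was led by Ndufa4 (118 ± 2.74), a subunit first assigned to complex I and later found with complex IV, and Ndufa1 (115.0 ± 2.25), which lay within the spread of each other.

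Of the 82 members, 76 passed the filter on low counts in at least 1 comparison and 75 in all 3 comparisons with control. The 6 that were never tested were the 4 copies Ndufa11b, Ndufb4c, Ndufs6b and Cox6c2, which the GENCODE M21 annotation lists as processed pseudogenes and which held from 0 to 7 counts in any library, together with the testis form Cox7b2, with 0 to 10 counts, and the muscle form Cox8b. No member was without a count in all 8 libraries. The annotated members lay on 19 chromosomes of GRCm38, and 27 of them had exons that overlapped another gene. Because 37 members shared at least 100 bases at 95% identity or more with another gene, reads could have been split between copies there, and in 22 members those other genes held more than 5% of the member's own counts.

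Hira depletion lowered most of these genes by a small amount. By the quasi-likelihood test of edgeR, 53 of the 76 members tested fell and 1 rose at a Benjamini-Hochberg adjusted p under 0.05, against 17.3% of all 19035 genes tested that fell and 17.6% that rose. The median log2 fold change of the members was -0.31 and that of all genes tested was 0.01. Among genes with a mean of 20 CPM or more, a level that 71 members reached, 52 of those members fell, against 29.3% of all such genes. Both Hira libraries lay below both controls in 64 members, against 31.4% of genes tested. At 20 CPM or more this held for 62 of 71 members and for 3500 of 8141 genes. With library totals in place of TMM scaling, the median of all genes moved to 0.14 and that of the members to -0.19, 34 members fell, and 5 rose, namely Cox6b2, Ndufa10, Ndufa12, Ndufs8 and Uqcrc1. The share of all calls that were lower went from 49.5% to 28.5% under that scaling, and 11 members of complex I, 6 of complex III, 10 of complex IV and 7 of complex V then fell. The calls for Atp5a1, Atp5b, Ndufa4, Ndufs7 and Uqcrfs1 were among those lost.

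**Figure D1:**
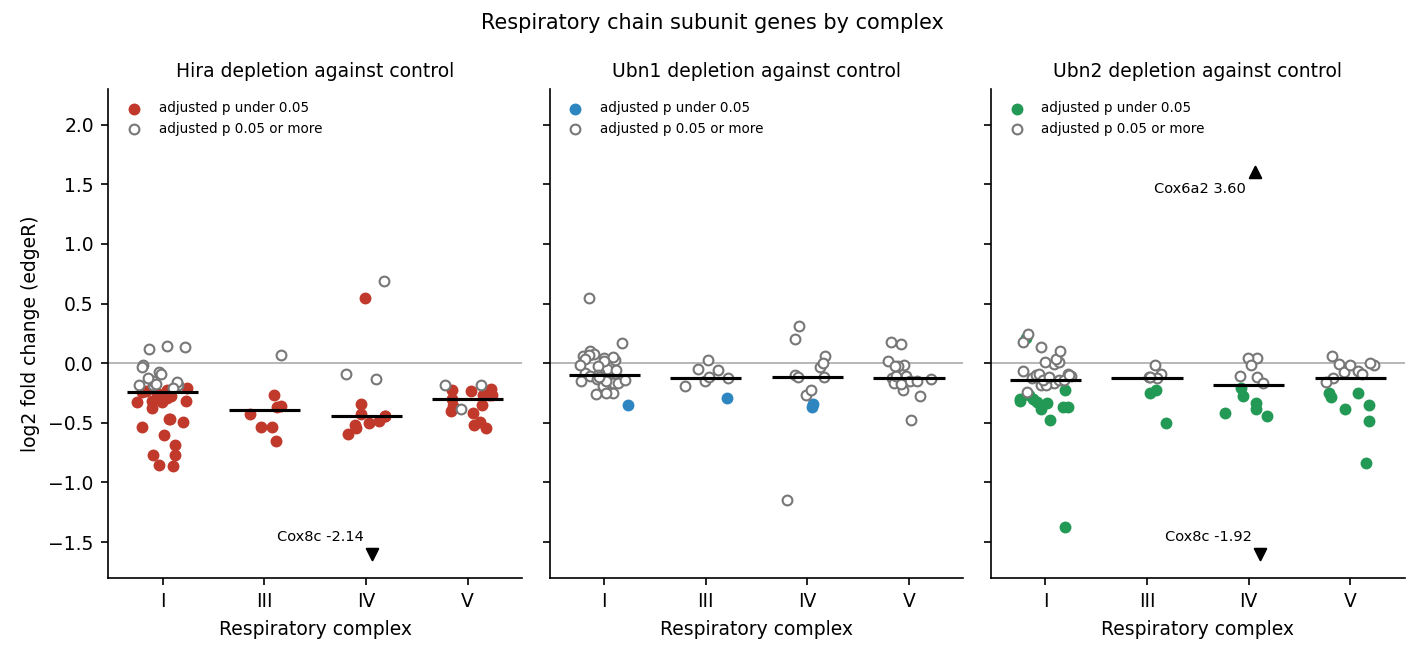
Each point is 1 member, placed by complex (horizontal axis) and by its log2 fold change against control in edgeR (vertical axis), for Hira, Ubn1 and Ubn2 depletion; filled points had an adjusted p under 0.05, bars are medians, and triangles mark values beyond the axis with the value printed. The medians for Hira depletion run from -0.24 in complex I to -0.44 in complex IV, and the largest rise is Cox6a2 at 3.60 after Ubn2 depletion.

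In complex I, 22 of the 37 members tested fell after Hira depletion, with a median log2 fold change of -0.24. The supernumerary subunits supplied 19 of these, of 29 tested, and the core subunits 2 of 7. Ndufa2 stood at 61.0 and 68.3 CPM in the controls and at 35.6 and 36.9 CPM after Hira depletion, a log2 fold change of -0.85 ± 0.09 (SE, adjusted p = 5.13e-07, edgeR). Ndufb4 went from 29.6 and 30.6 CPM to 17.2 and 16.3 CPM (log2 fold change -0.86 ± 0.11, adjusted p = 7.31e-06). Ndufb10 went from 88.6 and 97.3 CPM to 55.2 and 55.2 CPM (log2 fold change -0.77 ± 0.08, adjusted p = 4.88e-07). These 3 genes encode small subunits around the core, and in each the Hira libraries lay well below both controls without overlap. Ndufv3, of the NADH-binding module, was at 72.5 and 81.9 CPM in the controls and at 46.6 and 45.3 CPM after Hira depletion (log2 fold change -0.77 ± 0.09), and Ndufa7 was at 164 and 153 CPM and at 106 and 105 CPM (log2 fold change -0.61 ± 0.08).

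The core subunits of complex I ranged in log2 fold change from -0.47 to 0.13, and whether they differed from the supernumerary subunits was not tested. Ndufv2, an iron-sulfur subunit, fell from 101 and 103 CPM to 76.6 and 72.2 CPM (log2 fold change -0.47 ± 0.08, adjusted p = 7.67e-05), and Ndufs7, next to the quinone site, fell by 0.28 on the log2 scale (adjusted p = 0.0123), a call lost without control replicate 1 (log2 fold change -0.25, adjusted p = 0.0796). Ndufv1, which binds NADH, was at 168 and 172 CPM in the controls and at 153 and 163 CPM after Hira depletion, with a log2 fold change of -0.12 ± 0.07 that did not pass the test (adjusted p = 0.209). Ndufs8 had a log2 fold change of 0.13 ± 0.08 and did not pass either (adjusted p = 0.221). Among supernumerary subunits, Ndufa10 (0.12 ± 0.08) and Ndufa12 (0.15 ± 0.08) also had fold changes above 0 that did not pass. Complex I subunits therefore ranged from a log2 fold change of -0.86 to 0.15 in the same libraries.

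Complex III was lower in 7 of its 8 members, with a median log2 fold change of -0.39. Uqcr11 was at 83.7 and 92.0 CPM in the controls and at 51.8 and 61.5 CPM after Hira depletion (log2 fold change -0.66 ± 0.09, adjusted p = 1.03e-05). Uqcrq was at 155 and 158 CPM and at 108 and 110.2 CPM (log2 fold change -0.54 ± 0.07, adjusted p = 1.14e-05). Both encode small supernumerary subunits, all 5 of which fell. The 2 large core proteins parted: Uqcrc2 went from 189.5 and 174 CPM to 129 and 125 CPM (log2 fold change -0.53 ± 0.08, adjusted p = 1.86e-05), while Uqcrc1 was at 355 and 376 CPM and at 395 and 382 CPM, with a log2 fold change of 0.07 ± 0.07 that did not pass the test. The Rieske iron-sulfur protein gene Uqcrfs1 fell by 0.26 on the log2 scale (adjusted p = 0.00902), a call lost with library totals (-0.14, adjusted p = 0.146). Of the exon length of Uqcrc2, 19.7% overlaps Pdzd9.

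Complex IV had the lowest median, -0.44, with 10 of 14 tested members lower and 1 higher. Cox6c was at 150 and 150.5 CPM in the controls and at 101 and 100.4 CPM after Hira depletion (log2 fold change -0.59 ± 0.07, adjusted p = 3.85e-06). Cox7a2 was at 108 and 109 CPM and at 73.3 and 77.1 CPM (log2 fold change -0.55 ± 0.08, adjusted p = 1.29e-05). Cox7b, Cox7c, Cox5a, Cox7a2l, Cox5b, Cox8a and Cox6b1 fell by 0.34 to 0.52 on the log2 scale. Cox6a1, the other abundant general subunit, was at 329 and 333 CPM and at 323 and 305 CPM, and its log2 fold change of -0.09 ± 0.07 did not pass the test (adjusted p = 0.362). Cox7a2l, which links complexes III and IV, has a near-identical copy with 13167 counts over the 8 libraries against its own 21990, so its value is uncertain.

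In complex V, 14 of 17 members were lower and none was higher, with a median log2 fold change of -0.30, and both Hira libraries were below both controls in all 17. Atp5g2, which encodes subunit c of the rotating ring, was at 239 and 237 CPM in the controls and at 166 and 164 CPM after Hira depletion (log2 fold change -0.54 ± 0.07, adjusted p = 8.72e-06). The other subunit c genes, Atp5g1 (-0.36 ± 0.08) and Atp5g3 (-0.40 ± 0.08), fell as well. Atp5g1 shares sequence with 19 other genes, which held 119099 counts over the 8 libraries against its own 31021, so its value is uncertain. Atp5j, of the peripheral stalk, was at 137 and 147 CPM and at 102 and 98.4 CPM (log2 fold change -0.52 ± 0.08, adjusted p = 2.43e-05). The value of Atp5j is uncertain too, as a gene that shares its sequence held 30417 counts against its own 24108, and 12.7% of its exon length overlaps Gabpa. The catalytic head genes had the largest losses in CPM of any member and small folds. Atp5b went from 2208 and 2350.5 CPM to 1884 and 1869 CPM (log2 fold change -0.30 ± 0.07, adjusted p = 0.00332), a call lost without control replicate 2 (-0.25, adjusted p = 0.106). Atp5a1 went from 1416 and 1452 CPM to 1235 and 1251 CPM (log2 fold change -0.22 ± 0.07, adjusted p = 0.0208), lost without control replicate 1 (-0.25, adjusted p = 0.104) or replicate 2 (-0.21, adjusted p = 0.193).

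**Figure D2:**
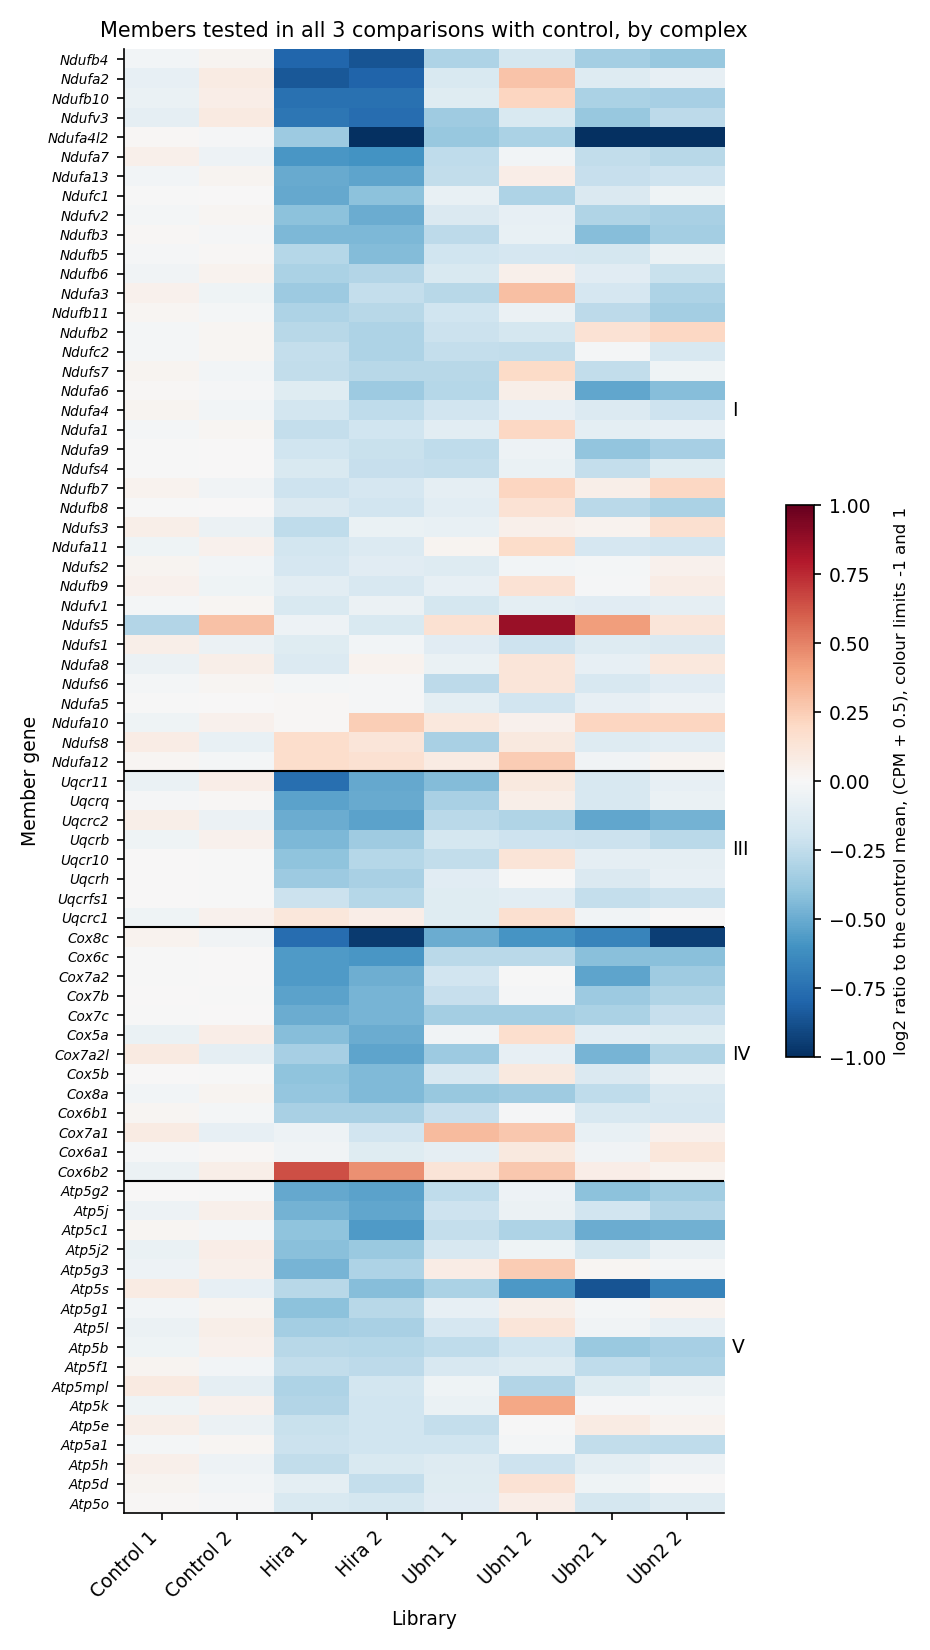
The 75 members tested in all 3 comparisons (rows, grouped by complex) are shown in each of the 8 libraries (columns) as the log2 ratio of CPM + 0.5 to the mean of the controls, with colours limited at -1 and 1. The 2 Hira columns are alike, with medians of -0.29 and -0.29, whereas the Ubn1 columns differ, with medians of -0.18 and -0.01.

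With the study's added requirement of a fold change over 1.5, 9 members fell and none rose after Hira depletion, against 5.40% and 10.8% of all genes tested. Besides the 7 already described (Ndufb4, Ndufa2, Ndufb10, Ndufv3, Uqcr11, Ndufa7 and Cox6c), these were Ndufa4l2 and Cox8c. A requirement of this size therefore set aside most of the members that passed on adjusted p alone, since the median member fell by less than that.

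Summed over members, complex I amounted to 2945 ± 5.64 CPM (SD, n = 2) in the controls and 2486 ± 0.585 CPM after Hira depletion, a change of -15.6%. The sums of complexes III, IV and V changed by -16.3%, -22.5% and -17.6%. After Ubn2 depletion the 4 sums changed by -10.4%, -9.95%, -12.1% and -16.1%, and after Ubn1 depletion by -4.57%, -6.04%, -8.55% and -8.96%. The complex V sum rests largely on 2 genes. Atp5b and Atp5a1 averaged 2279 and 1434 CPM of 6124 CPM in the controls, and 1786 and 1205 CPM of 5140.5 CPM after Ubn2 depletion. By median log2 fold change after Ubn2 depletion, complexes I, III, IV and V stood at -0.14, -0.12, -0.19 and -0.13. In every complex both Hira and both Ubn2 libraries were below both controls. Ubn1 replicate 2 lay above both controls in complexes I and III, so those groups overlapped. With 2 libraries against 2 an exact two-sided permutation test of a sum cannot give a p below 0.333, and none is given.

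**Figure D3:**
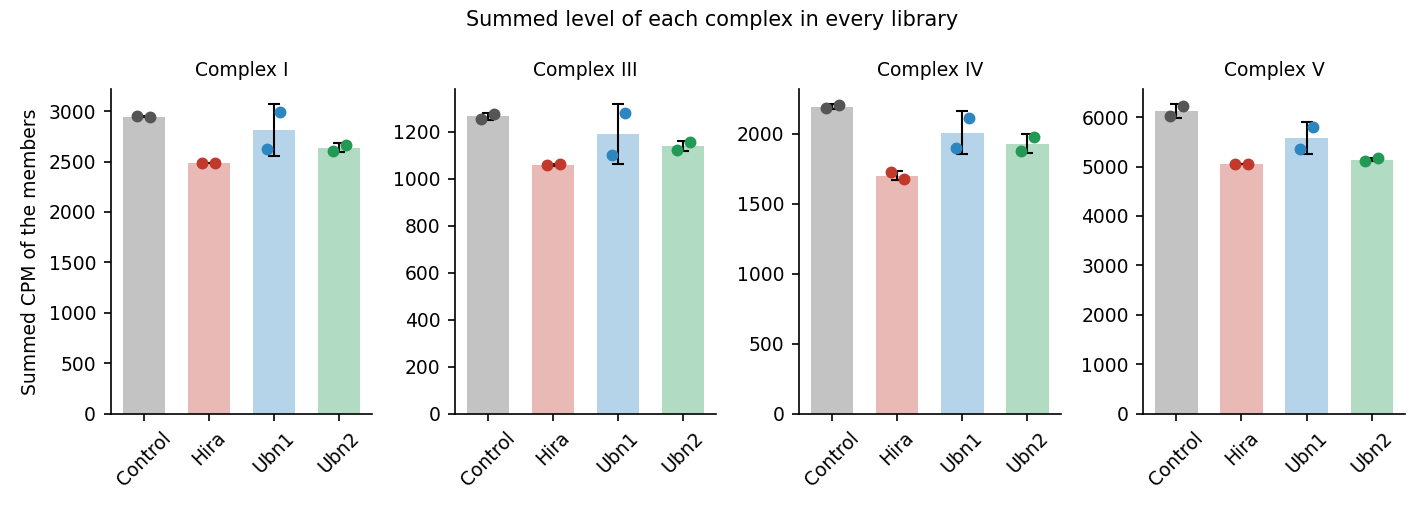
Bars are the means and points the 2 libraries of the summed CPM of all members of each complex (vertical axis, from 0), with error bars of 1 SD, in control, Hira-, Ubn1- and Ubn2-depleted cells. Hira libraries are the lowest in all 4 panels, and complex V runs from 5044 to 6218 CPM.

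After Ubn1 depletion few members passed. Of 75 tested, 4 fell and none rose, against 3.62% and 4.14% of all 18373 genes tested, and the median log2 fold change was -0.11 against 0.00 for all genes. Among the 71 members at 20 CPM or more the count was also 4, against 4.64% of such genes. Both libraries were below both controls in 32 members, against 24.8% of genes. No member passed with a fold over 1.5, against 1.56% of genes that fell and 1.53% that rose by that rule. The share of members called was thus close to the background.

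The 4 members were Cox8a, Cox7c, Uqcrc2 and Ndufa4l2. Cox8a was at 293 and 303 CPM in the controls and at 228 and 233 CPM after Ubn1 depletion (log2 fold change -0.37 ± 0.09, adjusted p = 0.00854, edgeR). Cox7c was at 271 and 273 CPM and at 215 and 215 CPM (log2 fold change -0.34 ± 0.09, adjusted p = 0.0155). Uqcrc2 (-0.29 ± 0.09, adjusted p = 0.0481) and Ndufa4l2 (-0.35 ± 0.11, adjusted p = 0.044) were near the threshold. Next came Atp5c1, the gamma subunit of the ATP synthase shaft (log2 fold change -0.28, adjusted p = 0.0556), and Cox6c (-0.27, adjusted p = 0.0623), which did not pass, nor did Ndufv3 (-0.26, adjusted p = 0.113), Atp5b (-0.23, adjusted p = 0.132) or Uqcrb (-0.19, adjusted p = 0.231). Without control replicate 1 or control replicate 2 the count of lower members was 0 in each case, without Ubn1 replicate 1 it was 6, and without Ubn1 replicate 2 it was 11.

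Ubn2 depletion lowered 30 of 76 members tested and raised 2, against 19.1% and 20% of all 18219 genes tested, with a median log2 fold change of -0.14 against 0.00 for all genes. Among the 71 members at 20 CPM or more, 28 fell, against 23.5% of such genes. Both libraries were below both controls in 54 members, against 34.9% of genes. By complex, 13 of 37 members of complex I fell, 3 of 8 of complex III, 7 of 14 of complex IV and 7 of 17 of complex V. With a fold over 1.5, 3 fell (Ndufa4l2, Cox8c and Atp5s) and 1 rose (Cox6a2), against 8.75% and 9.59% of genes.

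The isoforms Ndufa4l2 and Cox6a2 had the smallest adjusted p after Ubn2 depletion and are described with the isoforms. Uqcrc2 was at 189.5 and 174 CPM in the controls and at 127 and 130.3 CPM after Ubn2 depletion (log2 fold change -0.50 ± 0.07, adjusted p = 7.29e-06, edgeR). Atp5c1 was at 244 and 237 CPM and at 170.5 and 172.5 CPM (log2 fold change -0.49 ± 0.07, adjusted p = 7.79e-06). Next to these, Atp5g2 (-0.38 ± 0.07) and the supernumerary subunits Cox6c (-0.42 ± 0.07) and Ndufa6 (-0.48 ± 0.07) fell. Uqcrfs1 fell by 0.23, a call lost without Ubn2 replicate 1 (-0.21, adjusted p = 0.0658). Atp5s was at 7.497 and 6.60 CPM in the controls and at 3.63 and 4.23 CPM after Ubn2 depletion (log2 fold change -0.84 ± 0.20, adjusted p = 0.00239). Ndufa10, named here because its values were seen, was the other member called higher besides Cox6a2, at 92.9 and 98.6 CPM in the controls and at 111 and 111 CPM (log2 fold change 0.21 ± 0.07, adjusted p = 0.0185), and its call was lost without control replicate 1 (0.17, adjusted p = 0.129), Ubn2 replicate 1 (0.21, adjusted p = 0.0796) or Ubn2 replicate 2 (0.22, adjusted p = 0.0692).

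All 3 comparisons with control used the same 2 control libraries, so calls in common are not read as a result. Atp5s and Ndufb8 were called lower after Ubn2 depletion and not after Hira depletion, and neither differed between these depletions when they were compared directly.

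Compared directly, without the controls, Hira-depleted cells had lower levels than Ubn2-depleted cells in 24 of 75 members tested and higher levels in 4, against 17.2% and 18.6% of all 18563 genes tested. The median log2 difference of the members was -0.14, against 0.01 for all genes tested. At a mean of 20 CPM or more, 23 of 71 members were lower and 4 higher, against 2241 and 1336 of 8141 genes. The median of those genes was -0.06, so the excess of lower members was smaller at that level. Of the 25 members called lower after Hira but not after Ubn2 depletion, 15 were lower in this direct test too. They included the subunit c genes Atp5g1, uncertain because of its shared sequence, and Atp5g3, the complex IV subunits Cox5a and Cox5b, and 4 small complex III subunits. Ndufa2 was at 35.6 and 36.9 CPM after Hira depletion and at 58.9 and 61.1 CPM after Ubn2 depletion, a log2 difference of -0.72 ± 0.09 (adjusted p = 2.07e-05). Uqcr11 differed by -0.51 ± 0.09 (adjusted p = 0.000484) and Ndufb10 by -0.42 ± 0.08 (adjusted p = 0.000727). The 4 members higher after Hira depletion were Ndufa4l2, Cox6b2, Ndufa6 and Ndufs8. The call for Ndufa6 (0.25) was lost without Hira replicate 1 (0.12, adjusted p = 0.346) or Ubn2 replicate 1 (0.20, adjusted p = 0.178), and that for Ndufs8 (0.28) without Ubn2 replicate 1 (0.26, adjusted p = 0.0668). With library totals 19 members were lower and 7 higher. Hira- and Ubn1-depleted cells differed in 23 members that were lower and 1 that was higher with Hira, against 10.2% and 14.2% of genes. At 20 CPM or more these were 22 and 1 of 71 members, against 1466 and 882 of 8141 genes. Ubn2- and Ubn1-depleted cells differed in 6 members lower and 2 higher with Ubn2, against 7.98% and 8.60% of genes.

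The isoforms are described one by one. Cox6a2, the heart and skeletal muscle form of subunit VIa, had 7 and 16 counts in the control libraries, 37 and 4 in the Hira libraries, 2 and 1 in the Ubn1 libraries, and 153 and 71 in the Ubn2 libraries. As levels these are 0.341 and 0.503 CPM in the controls and 7.03 and 3.62 CPM after Ubn2 depletion, a log2 fold change of 3.60 ± 0.38 (adjusted p = 2.14e-07, edgeR). The Ubn2 libraries were far above all the others. Cox8b, the muscle form of subunit VIII, had 25 and 8 counts after Ubn2 depletion, 4 and 0 after Hira depletion and 0 in the 2 control and 2 Ubn1 libraries. Against a floor of 3 counts over the 2 controls together, Cox8b was at least 13.9-fold higher after Ubn2 depletion, a bound for counting error only, and it was too low to be tested. Of the general forms of the same subunits, Cox6a1 had a log2 fold change of 0.04 ± 0.07 that did not pass (adjusted p = 0.69), and Cox8a fell by 0.21, a call lost without control replicate 2 (-0.18, adjusted p = 0.11) or Ubn2 replicate 1 (-0.16, adjusted p = 0.156).

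Markers of heart muscle moved with these genes. The summed level of the 12 heart muscle markers ran from 32.1 to 40.1 CPM in the 6 control, Hira and Ubn1 libraries and was 353 and 226 CPM in the Ubn2 libraries, where 10 of the 12 rose and 1 fell. The cardiac actin gene Actc1 went from 0.0974 and 0.189 CPM in the controls to 85.3 and 49.7 CPM. Csrp3, at 0 in both controls, was at 7.999 and 3.57 CPM in the Ubn2 libraries. As with Cox6a2 and Cox8b, replicate 1 was the higher of the 2. The part of these markers in the values of Cox6a2 and Cox8b was not tested. Cox7a1, the muscle form of subunit VIIa, was at 7.595 and 6.73 CPM in the controls and at 6.76 and 7.39 CPM after Ubn2 depletion, so these groups overlapped (log2 fold change -0.01 ± 0.18, adjusted p = 0.963).

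Testis forms went in different directions. Cox6b2, the testis form of subunit VIb, was the single member that rose after Hira depletion, from 35.9 and 39.0 CPM to 58.8 and 51.5 CPM (log2 fold change 0.54 ± 0.10, adjusted p = 0.000163), while its general form Cox6b1 fell from 138 and 134 CPM to 108 and 109 CPM (-0.34 ± 0.07, adjusted p = 0.0012). The same gene stood at 39.2 and 38.3 CPM after Ubn2 depletion, a log2 fold change of 0.05 ± 0.10 that did not pass (adjusted p = 0.736), and the direct difference between Hira and Ubn2 depletion was 0.52 ± 0.09 (adjusted p = 0.000553). Of the 5 male germ cell markers, 3 were tested and all 3 rose after Hira depletion, Dazl by 1.10 and Sycp3 by 0.92 on the log2 scale. Their summed level was 60.9 and 48.6 CPM in the controls and 112 and 77.2 CPM in the Hira libraries. It was 67.8 and 77.7 CPM in the Ubn2 libraries, where 2 of the 3 rose and Cox6b2 did not pass. The spermatid marker Tnp1 was at 0 in all 8 libraries, and the part of the markers in the rise of Cox6b2 was not tested. Cox8c, another testis form, had 14 and 20 counts in the control libraries, 6 and 2 in the Hira, 7 and 7 in the Ubn1 and 5 and 2 in the Ubn2 libraries. Its log2 fold changes of -2.14 ± 0.64 after Hira (adjusted p = 0.0131) and -1.92 ± 0.67 after Ubn2 depletion (adjusted p = 0.0274) rest on those counts, and both calls were lost whichever library was left out, with adjusted p from 0.0579 to 0.127 and from 0.0751 to 0.236.

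Ndufa4l2, the hypoxia-induced relative of Ndufa4, was the member that fell most after Ubn2 depletion among those above 1 CPM. It was at 37.3 and 36.9 CPM in the control libraries, 28.7 and 17.3 in the Hira, 28.4 and 29.7 in the Ubn1 and 11.7 and 17.0 in the Ubn2 libraries. All 6 depleted libraries were below both controls. The log2 fold change was -1.38 ± 0.13 after Ubn2 (adjusted p = 7.69e-08) and -0.69 ± 0.15 after Hira depletion (adjusted p = 0.00129), the second call being lost in DESeq2's Wald test (-0.72, adjusted p = 0.121). The call in Ubn1-depleted cells was lost without either control (adjusted p = 0.286 and 0.219) or Ubn1 replicate 1 (adjusted p = 0.0761). The direct difference of 0.71 ± 0.20 between Hira and Ubn2 depletion (adjusted p = 0.0145) was lost without Hira replicate 1 (0.28, adjusted p = 0.235). Ndufa4 itself moved less, with log2 fold changes of -0.24 ± 0.07 after Hira and -0.17 ± 0.07 after Ubn2 depletion. The first call was lost without control replicate 1, control replicate 2 or Hira replicate 2 (adjusted p from 0.0509 to 0.121), and the second whichever library was left out (from 0.0605 to 0.269).

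**Figure D4:**
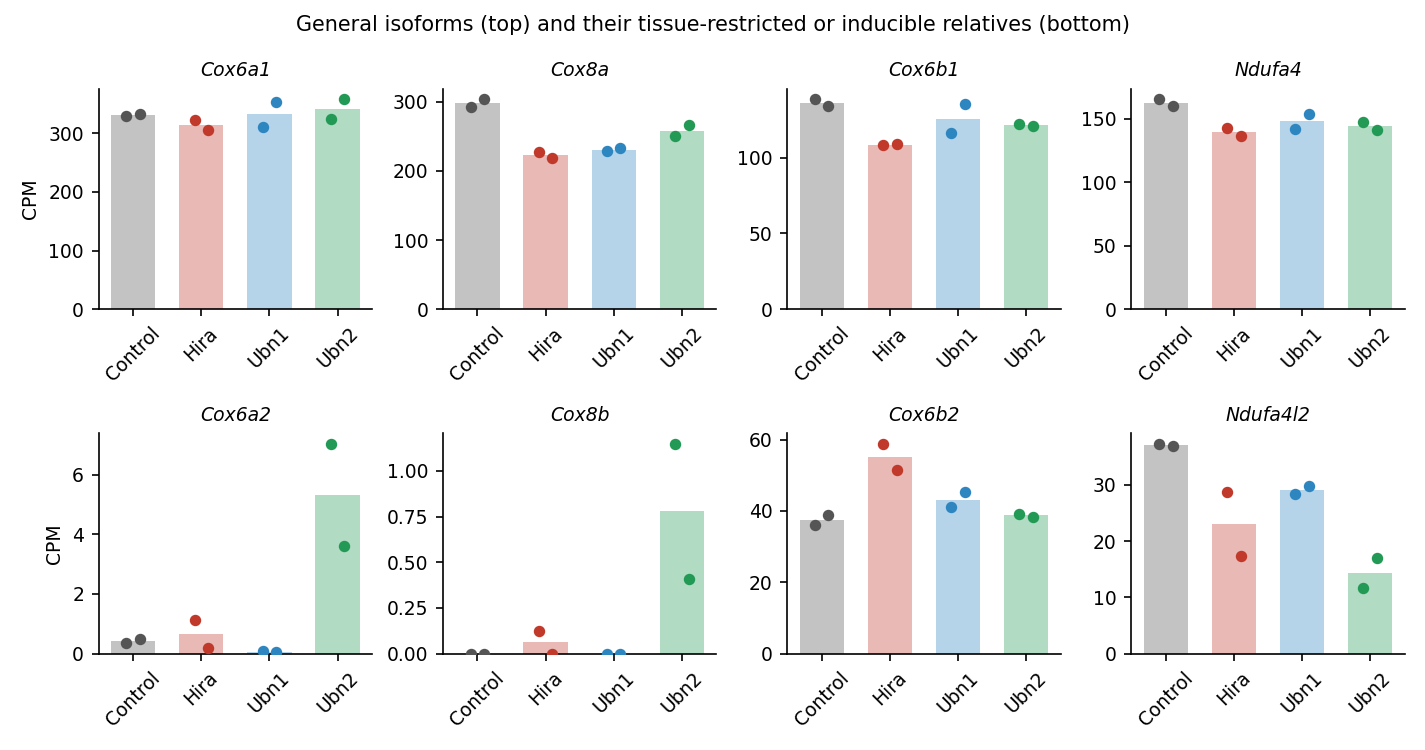
CPM (vertical axes, from 0, scaled per panel) of 4 general subunit genes (top) and their tissue-restricted or inducible relatives (bottom) in control, Hira-, Ubn1- and Ubn2-depleted cells; bars are means and points the 2 libraries. Cox6a2 reaches 7.03 and 3.62 CPM only in the Ubn2 libraries, Cox6b2 is highest in the Hira libraries, and Ndufa4l2 is lowest in the Ubn2 libraries.

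Promoters of members were compared for 3 sequence cores, because the factors that bind them are known regulators of nuclear genes for mitochondrial proteins. RefSeq promoters of GRCm38.p6, from 250 bases before to 50 bases after the start, were found for 65 members, 2 of them by synonym, as 70 promoters. The nuclear respiratory factor core GCGCANGCG was present on either strand in 27.1% of the member promoters and in 6.25% of all 32851 promoters, the ETS core CCGGAAG of GABPA in 20% and 8.86%, and the YY1 core AAGATGGC in 14.3% and 2.75%. A match is a description of letters. The 5 promoters shown are those of Ndufb4 (chr16:37654319-37654618, minus strand) and Ndufb10 (chr17:24724374-24724673, minus strand), which were among the members that fell most after Hira depletion, of Cox6a1 (chr5:115348909-115349208, minus strand), whose change did not pass in any comparison, of Cox6b2 (chr7:4753045-4753344, minus strand), which rose after Hira depletion, and of Cox8b (chr7:140900397-140900696, minus strand), counted mainly after Ubn2 depletion. Capitals mark the cores.
Ndufb4: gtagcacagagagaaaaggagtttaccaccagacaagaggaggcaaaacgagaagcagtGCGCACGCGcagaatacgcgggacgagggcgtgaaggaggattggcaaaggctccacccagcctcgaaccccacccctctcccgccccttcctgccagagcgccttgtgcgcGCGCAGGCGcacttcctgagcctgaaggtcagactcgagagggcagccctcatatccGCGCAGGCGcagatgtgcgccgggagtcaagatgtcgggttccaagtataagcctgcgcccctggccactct
Ndufb10: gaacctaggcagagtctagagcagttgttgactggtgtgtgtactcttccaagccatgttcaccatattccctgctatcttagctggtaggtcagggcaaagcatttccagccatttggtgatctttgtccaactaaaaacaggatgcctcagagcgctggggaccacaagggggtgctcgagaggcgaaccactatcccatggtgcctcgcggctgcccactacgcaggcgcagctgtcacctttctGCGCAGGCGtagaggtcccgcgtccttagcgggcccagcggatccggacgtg
Cox6a1: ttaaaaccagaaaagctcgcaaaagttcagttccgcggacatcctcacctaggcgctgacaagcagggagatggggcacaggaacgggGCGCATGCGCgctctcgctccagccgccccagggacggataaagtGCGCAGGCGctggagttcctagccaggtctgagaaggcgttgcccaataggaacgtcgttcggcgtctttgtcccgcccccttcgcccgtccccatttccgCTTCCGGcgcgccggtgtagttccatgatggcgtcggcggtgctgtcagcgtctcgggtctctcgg
Cox6b2: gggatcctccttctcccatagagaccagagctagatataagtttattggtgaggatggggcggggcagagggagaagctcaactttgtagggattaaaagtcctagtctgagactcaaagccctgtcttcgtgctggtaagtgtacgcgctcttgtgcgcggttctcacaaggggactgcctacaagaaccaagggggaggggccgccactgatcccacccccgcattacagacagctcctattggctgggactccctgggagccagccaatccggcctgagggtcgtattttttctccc
Cox8b: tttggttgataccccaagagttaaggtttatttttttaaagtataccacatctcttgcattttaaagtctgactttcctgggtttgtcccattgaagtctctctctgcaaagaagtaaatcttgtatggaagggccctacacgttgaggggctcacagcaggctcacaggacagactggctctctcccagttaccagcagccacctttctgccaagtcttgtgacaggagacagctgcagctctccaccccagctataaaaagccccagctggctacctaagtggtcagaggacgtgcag
The nuclear respiratory factor core was found at 3 places in the Ndufb4 window and at 1 in the Ndufb10 window. In the Cox6a1 window there were 3 matches, of which a pair overlap on opposite strands, and 1 ETS core. None of the 3 cores was found in the Cox6b2 and Cox8b windows. Of the 18 members with the nuclear respiratory factor core, 10 fell after Hira depletion (median log2 fold change -0.23), and of the 45 tested without it 34 fell (median -0.32). For the ETS core, 11 of 14 with and 33 of 49 without fell, and for the YY1 core 7 of 10 with and 37 of 53 without.

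The factors themselves were measured in the same libraries. Of 14 tested transcription regulators of mitochondrial genes, 6 fell and 2 rose after Hira depletion, against 17.3% and 17.6% of all genes tested. Of genes at 20 CPM or more, 29.3% fell. With library totals 3 regulators fell and 2 rose, and 1945 of all 19035 genes fell. Yy1 was at 114.5 and 113.5 CPM in the controls and at 79.7 and 82.6 CPM after Hira depletion (log2 fold change -0.51 ± 0.08, adjusted p = 2.71e-05, edgeR), and Nrf1 was at 87.0 and 81.8 CPM and at 69.7 and 64.6 CPM (-0.34 ± 0.08, adjusted p = 0.00257). Tfb1m, which acts on mitochondrial ribosomal RNA, fell by 0.53 after Hira and by 0.50 after Ubn2 depletion. After Ubn2 depletion 1 regulator rose, Esrrb, by 0.27, and Tfb1m was the one that fell. After Ubn1 depletion Esrra alone fell, by 0.39 on the log2 scale (adjusted p = 0.0433), a call lost with library totals, and it rose by 0.32 after Hira depletion (adjusted p = 0.0193).

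The subunits that the symbol rule leaves out were lower in part. Of these 9 genes, 5 fell after Hira depletion, or 3 with library totals, 3 after Ubn2 depletion and none after Ubn1 depletion (edgeR). Sdha, the flavoprotein of complex II, was at 264 and 263 CPM in the controls, at 166 and 168 CPM after Hira depletion (log2 fold change -0.67 ± 0.07, adjusted p = 6.26e-07) and at 246 and 234 CPM after Ubn2 depletion (-0.14, adjusted p = 0.124). Cox4i2, the hypoxia-induced form of subunit IV, was at 4.92 and 5.38 CPM in the controls, 2.27 and 1.99 CPM after Hira and 2.62 and 1.63 CPM after Ubn2 depletion, with log2 fold changes of -1.28 and -1.27. Of the 47 assembly factors, 13 fell and 2 rose after Hira depletion, and 9 fell and 4 rose after Ubn2 depletion. After Ubn1 depletion 4 fell and 1 rose. With library totals the counts were 7 and 4, 7 and 8, and 3 and 1. Over all genes tested, 17.3% fell after Hira, 19.1% after Ubn2 and 3.62% after Ubn1 depletion. At 20 CPM or more these shares were 29.3%, 23.5% and 4.64%. The share of assembly factors that fell was close to the background after Ubn2 depletion. After Hira depletion it was close to that of genes at 20 CPM or more. Cox17, the copper chaperone of complex IV, fell by 0.84 after Hira and by 0.47 after Ubn2 depletion, and Nubpl, which supplies iron-sulfur clusters to complex I, fell by 0.74, 0.95 and 0.47 after Hira, Ubn2 and Ubn1 depletion.

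The subunits encoded by mitochondrial DNA were measured too. Of the 12 of 13 tested after Hira depletion, 2 fell, a share close to the 17.3% of all genes tested that fell. They were mt-Nd5, by 0.63 (adjusted p = 4.6e-05, edgeR), and mt-Nd6, by 0.58 (adjusted p = 7.67e-05), on the log2 scale. The median of the 12 was -0.19, which was -0.06 with library totals. After Ubn2 depletion none fell and 5 rose, with a median of 0.11. mt-Nd1, a core subunit of complex I, was at 924 and 1070 CPM in the controls, at 768 and 1045 CPM after Hira depletion and at 1646 and 1507 CPM after Ubn2 depletion (log2 fold change after Ubn2 depletion 0.66 ± 0.08, adjusted p = 7.24e-07). mt-Nd2 (0.41 ± 0.08) and mt-Nd4 (0.36 ± 0.07) rose too, as did mt-Nd6 (0.53 ± 0.10). In the direct comparison 6 of 12 were lower after Hira than after Ubn2 depletion and none was higher, against 17.2% and 18.6% of genes. How well the mRNA kit recovers mitochondrial transcripts was not tested.

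Genes of the cytosolic ribosome were lower as well after Hira and Ubn2 depletion, and genes of the mitochondrial ribosome after Hira depletion. Of 87 tested genes for cytosolic ribosomal proteins, 70 fell after Hira depletion (median log2 fold change -0.33, or 48 and -0.21 with library totals) and 69 after Ubn2 depletion (-0.38, or 66 and -0.34), and the direct comparison of the 2 depletions had a median of 0.06 with 9 lower and 7 higher, or 9 and 23 with library totals. Of 78 genes for mitochondrial ribosomal proteins, 43 fell and 1 rose after Hira depletion (median -0.27, or -0.14 with library totals, where 24 fell and 7 rose). After Ubn2 depletion 15 fell and 9 rose (median -0.03, or 0.01 with library totals, where 13 fell and 12 rose), and 33 were lower and 3 higher in Hira- than in Ubn2-depleted cells. After Ubn1 depletion 14 cytosolic and 3 mitochondrial ribosomal protein genes fell. Of all genes tested, 17.3% fell after Hira, 19.1% after Ubn2 and 3.62% after Ubn1 depletion. The share of mitochondrial ribosomal protein genes that fell was close to this background after Ubn2 and Ubn1 depletion. Across the members tested, the log2 fold change after Hira depletion had a Spearman correlation of -0.05 with mean CPM and 0.03 with exon length (n = 75 genes, which share their libraries), given as a description. Across the 18996 genes tested that had an exon length, the correlations were -0.22 with mean CPM and 0.09 with exon length. More abundant genes thus tended to have lower fold changes after Hira depletion.

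**Figure D5:**
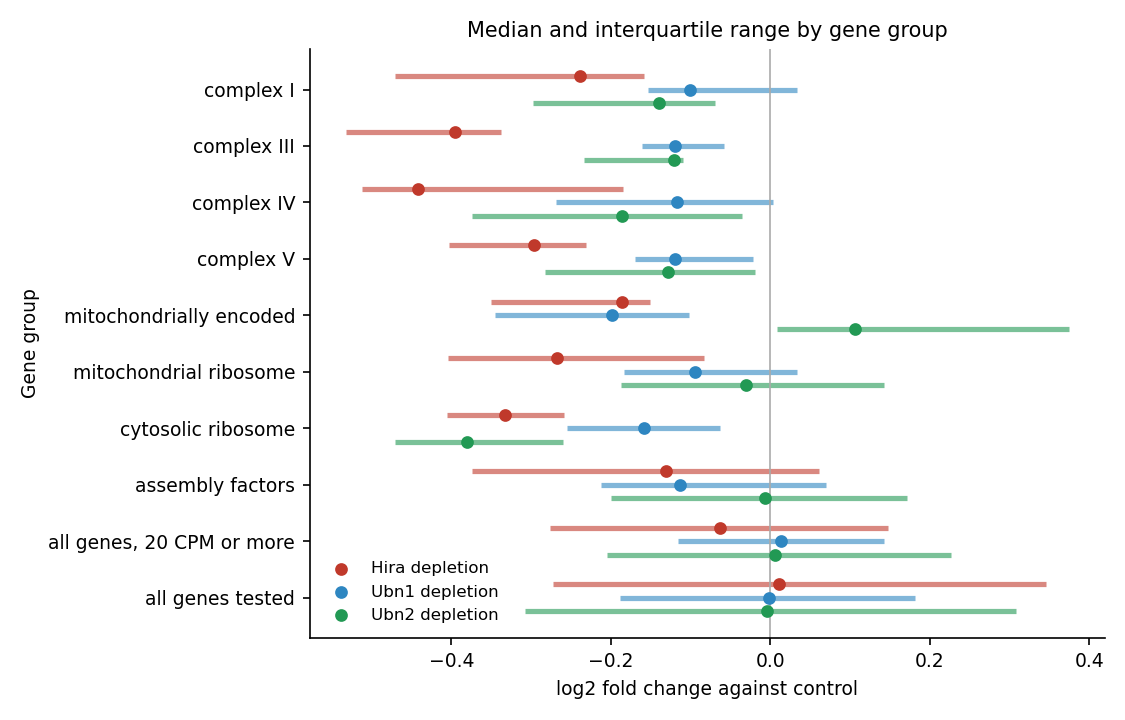
Points are the median and lines the interquartile range of the log2 fold change against control (horizontal axis) for the members of each complex and for other gene groups, after Hira, Ubn1 and Ubn2 depletion. For Hira depletion the medians of the 4 complexes lie to the left of that of all genes at 20 CPM or more (-0.06). So do those of the cytosolic (-0.33) and mitochondrial (-0.27) ribosomal protein genes, the mitochondrially encoded genes (-0.19) and the assembly factors (-0.13). For Ubn2 depletion the mitochondrially encoded genes lie to the right at 0.11.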

How the data were processed

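Poly-A RNA-seq of 8 mouse ESC libraries was analysed from 3 deposited tables of raw counts per gene symbol, each holding 1 depletion beside the same 2 controls, whose values were identical in all tables. Per the labels and the methods, the authors trimmed reads with Trim Galore, used STAR for alignment to GRCm38 and featureCounts for counting; versions and the strand setting are not given in the sources used here. Groups came from the labels. Totals of 19710040 to 32706053 counts per library set the precision, and intervals and floors cover counting error only.

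Each comparison was fitted alone with edgeR 4.0.16 (R 4.3.3) by the quasi-likelihood test, with filterByExpr, TMM scaling and Benjamini-Hochberg adjustment over all genes tested. A gene rose or fell at an adjusted p under 0.05, and the study's own rule added a fold change over 1.5. The test was checked on simulated data. CPM values use TMM-scaled totals. Exon lengths, positions and overlaps came from GENCODE M21, copies from blastn 2.17.0 of its transcripts (at least 100 bases at 95% identity), and promoters from RefSeq. The cytosolic ribosomal list left out the Rps6k kinase genes. Members and gene lists were chosen with earlier results of these data known. Named genes were all members past both thresholds (at most 10 each way), the 2 with the smallest adjusted p per complex and control comparison, the isoform groups, the 2 most and 2 least abundant per kilobase in each complex, the 3 depleted genes, and genes among the 3 with the smallest adjusted p in each list; other genes named as contrasts were picked after their values were seen. Alternatives were other scalings (DESeq2 1.42.0 size factors, library totals), the DESeq2 Wald test, other filters, 1 fit of all 8 libraries, a replicate block, leaving out each library, and the 1.5-fold rule.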

Additional observations from a re-analysis of the deposited data

Results flagged for a closer look

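Members whose level differed between depletions by more than 1.5-fold, tested directly with edgeR's quasi-likelihood test, are given here as values. Hira-depleted cells were lower than Ubn2-depleted cells in Cox6a2 (log2 fold change -2.87 ± 0.47, adjusted p = 0.000311) and Ndufa2 (-0.72 ± 0.09, adjusted p = 2.07e-05), and higher in Ndufa4l2 (0.71 ± 0.20, adjusted p = 0.0145). They were lower than Ubn1-depleted cells in Ndufa2 (-0.91 ± 0.12, adjusted p = 2.69e-06), Ndufb10 (-0.80 ± 0.11, adjusted p = 4.22e-06), Ndufs5 (-0.70 ± 0.22, adjusted p = 0.0228) and Ndufb4 (-0.59 ± 0.13, adjusted p = 0.00145). Ndufs5, at 5.42 and 5.03 CPM after Hira and 6.34 and 10.7 CPM after Ubn1 depletion, shares sequence with a pseudogene that held more counts (4806 over the 8 libraries against its own 1307), so its value is uncertain. Ubn2-depleted cells were lower than Ubn1-depleted cells in Ndufa4l2 (-1.02 ± 0.15, adjusted p = 0.000169) and higher in Cox6a2, with a fitted log2 fold change of 6.29 that rests on 3 counts in the 2 Ubn1 libraries against 224 in the 2 Ubn2 libraries. The ratio of these levels is 86.6, with a 95% exact interval for counting error from 29.2 to 423.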

How the results depend on the processing

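No member's call changed direction under any alternative: of 1293 values of the 118 calls in the comparisons with control and of Hira with Ubn2 depletion, 1124 still passed and 169 did not, 97 of the latter when a library was left out and 1 arm was a lone sample assumed to vary like the others. After Hira depletion 53 members were lower, 34 with library totals, 9 with the 1.5-fold rule, and 38 to 45 with a library left out. Their median of -0.31 became -0.32 with DESeq2 size factors, -0.19 with library totals, -0.33 with DESeq2's Wald test or no filter (value -0.335 in each), -0.30 with at least 10 counts per library (-0.301) and in 1 fit of all 8 libraries (-0.298), and -0.32 to -0.30 with a library left out. After Ubn1 depletion the 4 lower members became 2 with library totals, 7 with the replicate block, 0 with the 1.5-fold rule and 0 to 11 with a library left out. After Ubn2 depletion the 30 became 3 with the 1.5-fold rule, and the median of -0.14 became -0.10 with library totals. Between Hira and Ubn2 depletion the 24 lower members became 2 with the 1.5-fold rule, the median of -0.137 became -0.073 with library totals and -0.17 to -0.12 with a library left out, and the share of all calls that were lower went from 48.0% to 37.3% with library totals. The cause of these changes was not tested, apart from the shift that library totals give to all genes. Replicate numbers do not pair the libraries (same-number correlations of deviations from -0.05 to 0.07 over 19264 genes), and the replicate block gave 59, 7, 32 and 22 lower members for Hira, Ubn1, Ubn2 and Hira against Ubn2. With 2 libraries a group, the depth of Cox6a2, Cox8b and Cox8c limits what can be said of them.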
